A study of Rattus norvegicus with 31 samples.

Results

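The livers of rats given clothianidin (CTD) alone were compared with those of vehicle controls, by RNA-Seq of 3 CTD rats and 8 control rats out of the 31 rats sequenced. All rats were young adult female Wistar rats (Crl:WI) dosed once daily by oral gavage over 28 days. The CTD group received 288 mg/kg bw/day of CTD suspended in aqueous carboxymethyl-cellulose, and the controls received that vehicle only. The dosing scheme of the study lists 3 rats for this CTD dose and marks that at least 1 rat of the group was killed in moribund condition. It is not stated whether a sequenced rat was moribund. The other groups of the series received thiacloprid (THI), imazalil (IMZ) or mixtures, and 2 of them, THI + CTD (54 and 134 mg/kg bw/day, 4 rats) and IMZ + CTD (46 and 135 mg/kg bw/day, 4 rats), are used below because they hold CTD at a lower dose. Of 26312 genes counted, the 19904 with a sum of 2 or more counts in the 31 libraries entered the tests.

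CTD is a neonicotinoid insecticide, a class of compounds that activate the nicotinic acetylcholine receptors of insects. In the liver, foreign compounds of many kinds activate the nuclear receptors CAR (constitutive androstane receptor) and PXR (pregnane X receptor), which raise the transcription of cytochrome P450 enzymes, conjugating enzymes and export pumps. Adult hepatocytes rarely divide. When they enter the cell cycle, cyclins and E2F factors first drive the genes of DNA replication, and then the factors B-Myb and FoxM1 and the DREAM complex control a late wave of genes for chromosome condensation, the spindle and cytokinesis.

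Library totals, in units of 1000000 counts, ran from 31.8 to 38.4 in the CTD rats and from 32.7 to 101 in the controls (exact permutation test of the means, two-sided, p = 0.103, with 0.00606 the smallest p that regrouping 11 rats allows). CPM stands for counts per 1000000 after scaling by the TMM method, and the values of the CTD rats are given in the order of rats 1, 2 and 3. The label of the tissue held: albumin took 13.5% to 14.4% of the counts of the CTD libraries and 12.1% to 16.1% of those of the controls. In the same exact permutation test, the counts of mitochondrially encoded genes took a larger share in all 3 CTD libraries (1.53% to 1.99%) than in any control (0.882% to 1.51%, p = 0.00606, 6 measures tested, adjusted p = 0.0364 by Benjamini-Hochberg). The study lists a smaller share of uniquely mapped reads for CTD rats 2 and 3 than for any control, with CTD rat 1 within the range of the controls. The part of this share in the differences from control was not tested. In bulk tissue, fewer cells of a type and less RNA per cell cannot be told apart in any value below.

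A differentially expressed gene (DEG) is one with an adjusted p under 0.05 in the quasi-likelihood test of edgeR, fitted on all 31 libraries with Benjamini-Hochberg adjustment over the 19904 genes. DEGs made up 12.7% of the genes tested, 6.62% higher and 6.03% lower in the CTD rats. In 1707 of the 2518 DEGs, or 67.8%, the 3 CTD rats lay beyond all 8 controls on the side of the call. Over all genes tested, the 3 CTD rats lay above all controls for 5.33% and below all controls for 5.48%. The larger changes were more often upward: 372 DEGs rose by more than 1 on the log2 scale and 212 fell by more than 1, and beyond 2 the numbers were 221 and 104. The median log2 fold change of all genes tested was -0.067, and it was -0.013 over the 11297 genes with an average log2 CPM above 0. Each library was also left out in turn, and CTD rat 1 moved the count most: without it 754 genes were called higher and 716 lower, against 1318 and 1200 with it. Without CTD rat 2 the genes called lower were 794.

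**Figure D1:**
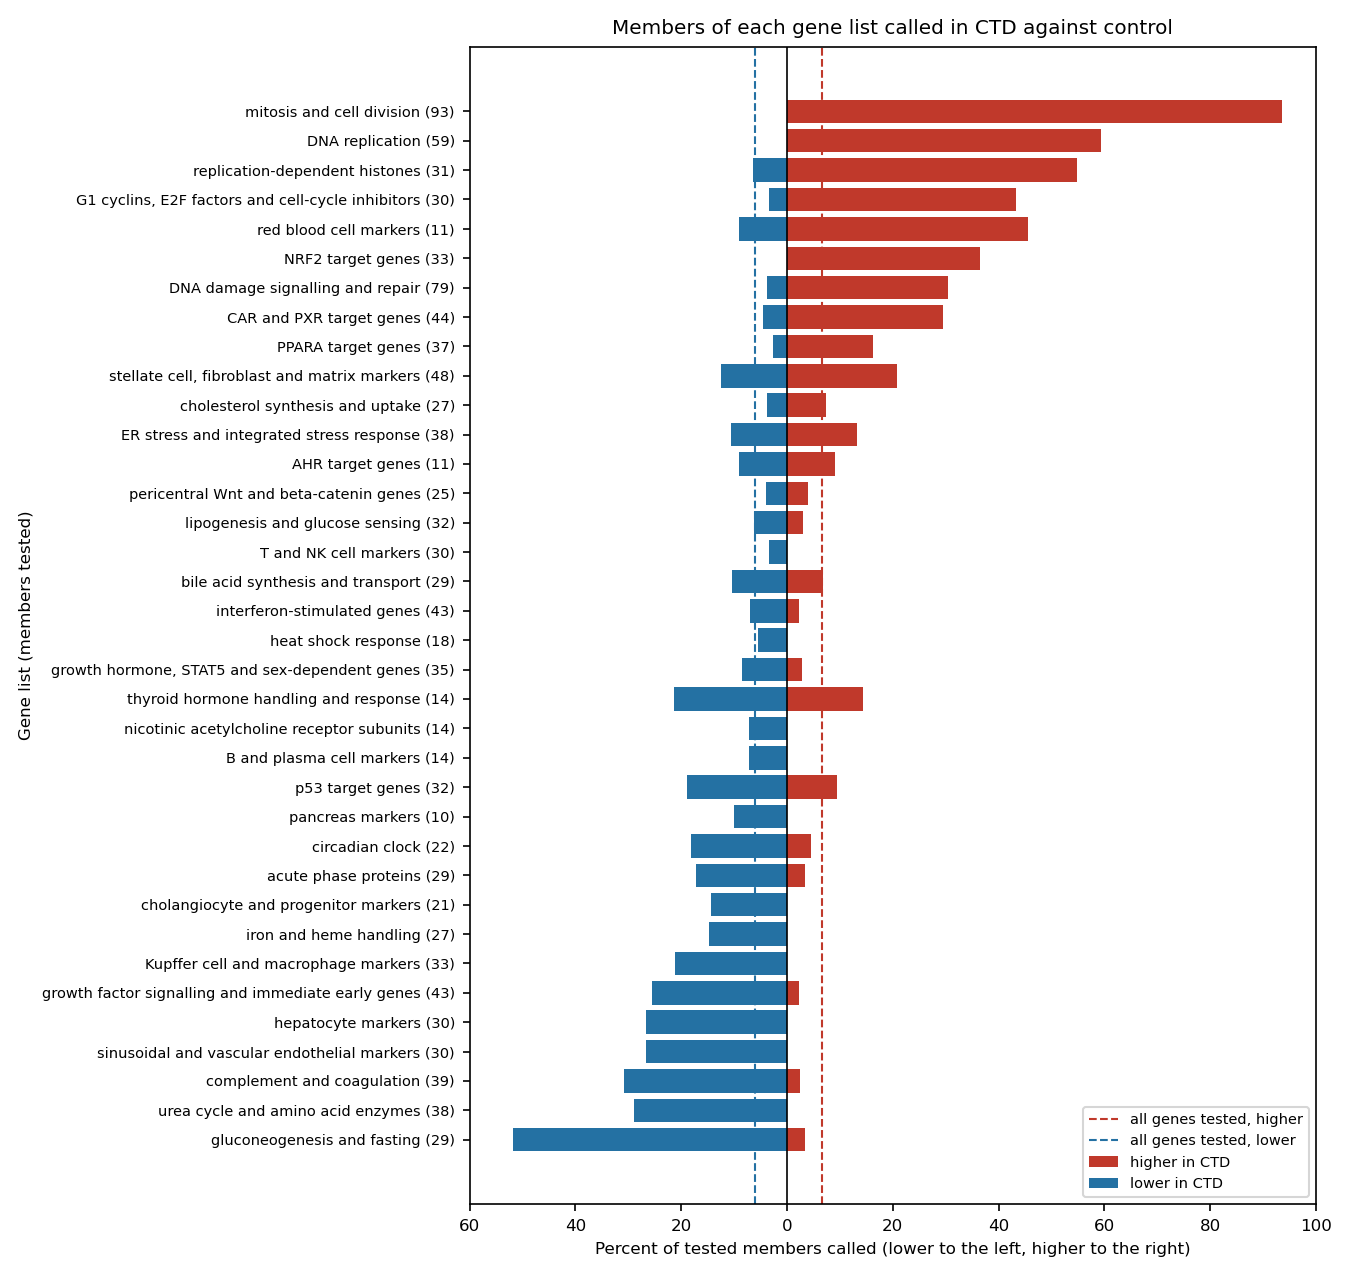
Share of the tested members of each of 36 gene lists called higher (bars to the right) or lower (bars to the left) in the 3 CTD rats against 8 controls, with the number of members tested beside each name and dashed lines at the shares over all 19904 genes (6.62% higher, 6.03% lower). Mitosis and cell division reached 93.5% higher, and gluconeogenesis and fasting stood at the lower end of the plot.

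Most genes of cell division were higher in the CTD rats. Of the 93 members tested, 87 were higher and 0 lower (1 at an unadjusted p under 0.05 by edgeR and 0 by the Wald test of DESeq2), with a median log2 fold change of 2.62. The mean of these members, as log2 CPM minus the mean of the controls, was 3.16, 1.71 and 1.59 in CTD rats 1, 2 and 3, against -0.41 to 0.48 in the controls. All 3 CTD rats thus stood above all controls, and CTD rat 1 stood highest by more than a unit. In 74 of the 93 members the 3 CTD rats lay above all 8 controls. Members of the list called higher numbered 65 without CTD rat 1.

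Cdk1, the kinase that drives entry into mitosis, was at 13, 5.09 and 2.77 CPM with CTD and 0.238 to 0.801 CPM (median 0.688) in the controls (log2 fold change 3.44 ± 0.41, adjusted p = 9.43e-07). Ccnb1, its cyclin partner, was at 9.23, 3.8 and 2.8 CPM with CTD and 0.202 to 1.04 CPM (median 0.499) in the controls (log2 fold change 3.24 ± 0.48, adjusted p = 2.12e-05). The groups did not overlap for either gene, and the order of the CTD rats was the same for both. Mki67, which encodes the proliferation marker Ki-67, was at 45.2, 15.8 and 10.9 CPM with CTD and 1.74 to 5.4 CPM (median 2.87) in the controls (log2 fold change 2.94 ± 0.42, adjusted p = 1.18e-05). Top2a, the topoisomerase that untangles replicated chromosomes, was at 57.8, 18.6 and 16.5 CPM with CTD and 1.33 to 5.12 CPM (median 2.78) in the controls (log2 fold change 3.40 ± 0.45, adjusted p = 4.14e-06). Foxm1, a transcription factor of the late cell cycle, changed less, with 5.12, 2.02 and 2.4 CPM with CTD and 0.586 to 1.38 CPM (median 0.87) in the controls (log2 fold change 1.75 ± 0.29, adjusted p = 0.000102). For all of these, CTD rat 1 was the highest of the 11 rats and the other two CTD rats were still above every control.

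**Figure D2:**
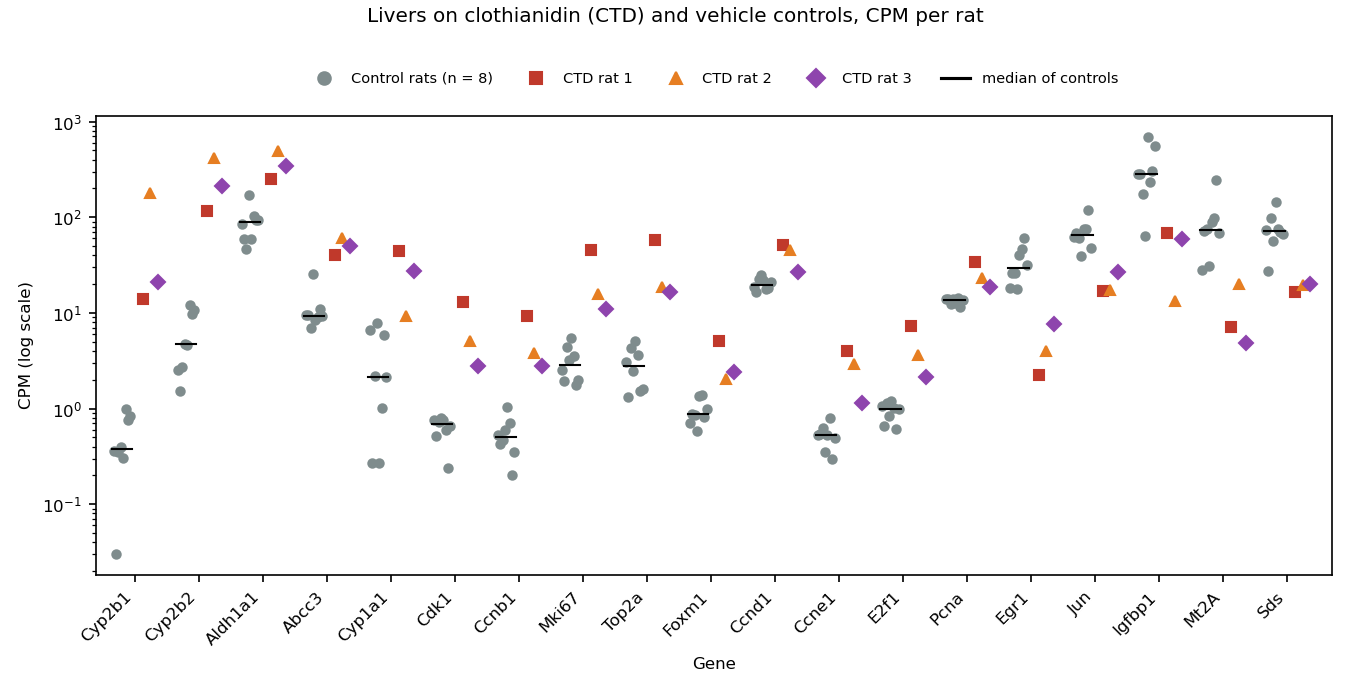
CPM of 19 genes on a log scale in each rat, with grey points for the 8 controls, a black bar for their median, and a square, triangle and diamond for CTD rats 1, 2 and 3. The cell cycle genes Cdk1 to Pcna lie above all controls in every CTD rat with rat 1 on top, whereas Cyp2b1 and Cyp2b2 are highest in rat 2, and Egr1, Jun, Mt2A and Sds lie below all controls.

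Several of the largest increases of the whole comparison were genes of this kind. Pbk, a mitotic kinase, was at 8.45, 4.39 and 3.11 CPM with CTD and 0.055 to 0.741 CPM (median 0.279) in the controls (log2 fold change 3.98 ± 0.50, adjusted p = 1.74e-06). Mastl, the kinase that restrains the phosphatase opposing Cdk1, was at 7.21, 2.27 and 0.923 CPM with CTD and 0.0183 to 0.469 CPM (median 0.32) in the controls (log2 fold change 3.60 ± 0.55, adjusted p = 3.03e-05). Ncapg, a subunit of condensin, was at 7.67, 2.15 and 1.97 CPM with CTD and 0.0905 to 0.711 CPM (median 0.323) in the controls (log2 fold change 3.48 ± 0.52, adjusted p = 1.96e-05). CTD rat 1 was the highest in each of these. Cdca3, which promotes entry into mitosis, was at 6.48, 2.92 and 2.83 CPM with CTD and 0.0733 to 0.609 CPM (median 0.366) in the controls (log2 fold change 3.50 ± 0.47, adjusted p = 5.73e-06). Ckap2, a spindle protein that is also listed among the targets of p53, was at 21.6, 4.86 and 6.8 CPM with CTD and 0.603 to 1.52 CPM (median 0.764) in the controls (log2 fold change 3.58 ± 0.48, adjusted p = 4.88e-06). The smallest change called in the list was that of BUB3 (0.30 ± 0.08, adjusted p = 0.0106), a protein of the spindle checkpoint. The call was lost for BUB3 (without CTD rat 2, adjusted p = 0.0902).

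The promoters of these genes are shown because the late cell cycle genes rose together and are known to share 2 short elements, the CCAAT box and the cell cycle homology region (CHR). Each window runs from 250 bases before to 50 bases after the annotated start, 5′ to 3′ on the strand of the gene, from RefSeq in build GRCr8, while the counts were made on Rnor_5.0. Letters in capitals mark CCAAT and the CHR letters TTTGAA or TTCGAA on either strand. The windows lie at chr20:19265043-19265342 on the plus strand, chr2:33655176-33655475 on the minus strand, chr1:199952544-199952843 on the minus strand and chr10:84473044-84473343 on the minus strand.
Cdk1 promoter: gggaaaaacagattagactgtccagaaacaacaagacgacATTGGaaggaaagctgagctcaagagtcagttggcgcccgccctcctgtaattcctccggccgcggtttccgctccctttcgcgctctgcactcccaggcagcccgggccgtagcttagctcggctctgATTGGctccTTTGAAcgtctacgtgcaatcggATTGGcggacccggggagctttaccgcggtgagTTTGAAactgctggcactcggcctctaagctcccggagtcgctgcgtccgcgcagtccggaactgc
Ccnb1 promoter: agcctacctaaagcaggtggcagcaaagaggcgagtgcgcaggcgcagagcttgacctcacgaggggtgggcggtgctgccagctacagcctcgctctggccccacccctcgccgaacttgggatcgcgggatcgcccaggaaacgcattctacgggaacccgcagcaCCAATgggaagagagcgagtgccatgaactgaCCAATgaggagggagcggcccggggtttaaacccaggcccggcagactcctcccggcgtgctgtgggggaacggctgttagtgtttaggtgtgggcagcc
Mki67 promoter: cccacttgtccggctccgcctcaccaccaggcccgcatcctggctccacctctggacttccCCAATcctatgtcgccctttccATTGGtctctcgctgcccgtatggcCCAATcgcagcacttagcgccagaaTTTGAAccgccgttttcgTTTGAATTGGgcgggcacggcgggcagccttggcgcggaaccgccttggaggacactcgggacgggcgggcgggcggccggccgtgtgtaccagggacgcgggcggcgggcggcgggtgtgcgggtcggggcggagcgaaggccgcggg
Top2a promoter: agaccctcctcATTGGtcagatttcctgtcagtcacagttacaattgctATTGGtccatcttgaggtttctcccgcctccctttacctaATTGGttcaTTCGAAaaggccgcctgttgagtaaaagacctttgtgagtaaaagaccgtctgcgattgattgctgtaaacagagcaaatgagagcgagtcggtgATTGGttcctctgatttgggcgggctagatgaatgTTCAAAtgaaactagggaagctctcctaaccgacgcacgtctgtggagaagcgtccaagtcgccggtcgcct

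Of the 87 members called higher in the mitosis list, 72 matched a window by symbol. CCAAT was found in 47 of these windows, or 65.3%, and the CHR letters in 51, or 70.8%. In the promoter table as a whole, with 1 window for each of 27457 genes, the shares were 37.7% and 19.5%. Both elements together were in 37 of the windows of the list, or 51.4%, and in 7.83% of all windows. The window of Ccnb1 held CCAAT without the CHR letters. The 35 members of the DNA replication list that were called higher gave 29 windows, of which 20 (69.0%) held CCAAT and 6 (20.7%) the CHR letters. The share with CCAAT was thus no lower than in the mitosis list. These are matches of letters and not tested sites. The mitosis list was written from known genes and nearly all of its tested members were called. Its shares therefore describe the genes listed and are not a result of CTD.

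Genes of DNA replication were higher in part. Of the 59 members tested, 35 were higher and 0 lower (1 at an unadjusted p under 0.05 by edgeR and 1 by the Wald test of DESeq2), with a median log2 fold change of 0.79. The mean of the list was 1.60, 0.78 and 0.62 in CTD rats 1, 2 and 3, against -0.18 to 0.22 in the controls. CTD rat 1 was again highest, and without it the members called higher were 18. Rrm2, a subunit of the enzyme that makes deoxyribonucleotides, was at 6.97, 2.25 and 2.09 CPM with CTD and 0.109 to 0.575 CPM (median 0.294) in the controls (log2 fold change 3.53 ± 0.55, adjusted p = 3.33e-05), and its reads may be shared with a second identifier of the same symbol in capitals. Pcna, the sliding clamp of the replication fork, was at 34, 23 and 18.6 CPM with CTD and 11.5 to 14.4 CPM (median 13.8) in the controls (log2 fold change 0.92 ± 0.13, adjusted p = 1.44e-05). Mcm2, a subunit of the replicative helicase, was at 21.2, 13.4 and 11 CPM with CTD and 7.14 to 10.3 CPM (median 8.73) in the controls (log2 fold change 0.79 ± 0.17, adjusted p = 0.00206). The groups did not overlap for these genes, although for Mcm2 CTD rat 3 was close to the highest control. Dtl, which directs replication proteins to degradation, had the largest change of the list (1.87, 0.543 and 0.831 CPM against 0.0183 to 0.219 CPM (median 0.0591), log2 fold change 3.59 ± 0.52, adjusted p = 1.42e-05) and Rfc5 (0.43 ± 0.14, adjusted p = 0.0416), a clamp loader subunit, the smallest. Calls lost with 1 library fewer were those of Mcm2 (without CTD rat 1, adjusted p = 0.125) and Rfc5 (without CTD rat 1 or Control rat 1, 4, 7 or 8, adjusted p = 0.0537 to 0.602).

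Replication-dependent histone genes, whose mRNAs are made in S phase, rose in part. Of the 31 members tested, 17 were higher and 2 lower, with a median log2 fold change of 1.37. The mean of the list was 1.86, 0.82 and 0.69 in CTD rats 1, 2 and 3, against -0.33 to 0.25 in the controls. Hist1h4a was at 11.4, 4.99 and 4.98 CPM with CTD and 0.403 to 1.9 CPM (median 0.967) in the controls (log2 fold change 2.83 ± 0.39, adjusted p = 7.36e-06) and Hist1h2ba at 1.3, 0.543 and 0.523 CPM with CTD and 0.0183 to 0.292 CPM (median 0.113) in the controls (log2 fold change 2.63 ± 0.51, adjusted p = 0.000581). Neither gene overlapped between the groups. Hist1h1b, a linker histone, changed by 0.89 ± 0.28 (adjusted p = 0.0312), and Hist1h4b was lower (log2 fold change -0.64 ± 0.18, adjusted p = 0.0138). Histone genes are near-identical copies, so the split of reads among them is uncertain. Leaving out 1 library ended the call of Hist1h1b (without CTD rat 1 or 3 or Control rat 5 or 8, adjusted p = 0.0502 to 0.185) and Hist1h4b (without CTD rat 2, adjusted p = 0.138).

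Regulators of the G1 phase changed in part. Of the 30 members tested, 13 were higher and 1 lower, with a median log2 fold change of 0.41. Ccnd1, the D-type cyclin that responds to growth signals, was at 51.4, 45.7 and 26.8 CPM with CTD and 16.5 to 24.9 CPM (median 19.7) in the controls (log2 fold change 1.03 ± 0.19, adjusted p = 0.000364). Ccne1, the cyclin of the G1/S transition, was at 4.03, 2.95 and 1.14 CPM with CTD and 0.293 to 0.802 CPM (median 0.527) in the controls (log2 fold change 2.38 ± 0.33, adjusted p = 1.03e-05), and E2f1, a factor that activates replication genes, at 7.28, 3.67 and 2.12 CPM with CTD and 0.605 to 1.21 CPM (median 0.995) in the controls (log2 fold change 2.21 ± 0.29, adjusted p = 4.88e-06). All 3 CTD rats lay above all controls for the 3 genes. Cdkn1a, the p21 inhibitor of cyclin-dependent kinases, was at 14, 6.72 and 13.2 CPM with CTD and 8.7 to 16.8 CPM (median 11.8) in the controls and did not pass the test (log2 fold change -0.19 ± 0.25, adjusted p = 0.681). The largest change called in the list was that of CDKN3 (3.17 ± 0.59, adjusted p = 0.000335), a phosphatase of Cdk proteins, and the smallest that of Cdk4 (-0.22 ± 0.07, adjusted p = 0.0251), the kinase partner of cyclin D, which was lower. With 1 library left out, the call was lost for Cdk4 (without CTD rat 1 or 3, adjusted p = 0.0732 to 0.156).

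Genes of DNA damage signalling and repair rose in part. Of the 79 members tested, 24 were higher and 3 lower, with a median log2 fold change of 0.17. Brca1, which acts in the repair of double-strand breaks, was at 9.49, 3.72 and 3.63 CPM with CTD and 1.72 to 4.1 CPM (median 2.85) in the controls (log2 fold change 0.94 ± 0.27, adjusted p = 0.0185), with CTD rats 2 and 3 inside the range of the controls. In 14 of the 79 members the 3 CTD rats lay above all 8 controls and in 0 below, against 5.33% and 5.48% of all genes tested. Exo1, a nuclease, was at 1.09, 0.155 and 0.677 CPM with CTD and 0 to 0.14 CPM (median 0.0472) in the controls (log2 fold change 3.34 ± 0.65, adjusted p = 0.00061). The levels of Exo1 rest on few counts, so the size of its change is uncertain. The checkpoint kinase gene Chek1 (0.37 ± 0.21, adjusted p = 0.272) did not pass the test, and Mus81 (-0.49 ± 0.17, adjusted p = 0.0479), a nuclease subunit, had the most negative change called. Without CTD rat 1, 11 members were called higher. The test was no longer passed by Brca1 (without CTD rat 1, adjusted p = 0.566) and Mus81 (without CTD rat 2 or 3 or Control rat 1, 2, 4, 5, 6 or 8, adjusted p = 0.0554 to 0.261).

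Targets of p53 moved both ways. Of the 32 members tested, 3 were higher and 6 lower, with a median log2 fold change of -0.04. Those lower made up 18.8% of the list and those higher 9.38%, against 6.03% and 6.62% of all genes tested. The classical targets Mdm2 (0.31 ± 0.15) and Ccng1 (0.05 ± 0.11) did not pass the test. Beside Ckap2, described above with the mitosis genes, the calls included Pmaip1, which encodes the pro-apoptotic protein NOXA and was near zero, with 1, 0 and 0 counts in the CTD rats and 3 to 13 counts in the controls (adjusted p = 0.00216). At such counts no fold change is given.

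**Figure D3:**
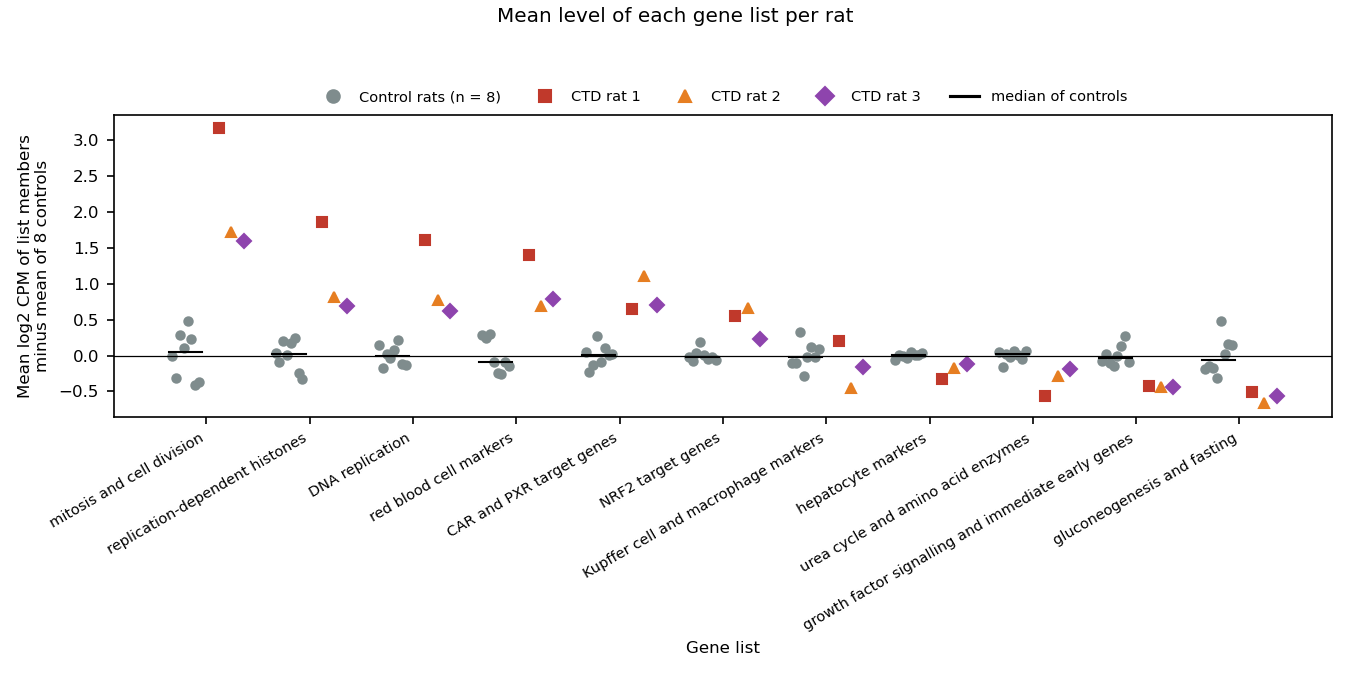
Mean log2 CPM of the members of 11 gene lists in each rat, minus the mean of the 8 controls, with grey points for controls, a black bar for their median, and a square, triangle and diamond for CTD rats 1, 2 and 3. CTD rat 1 is highest for the lists of cell division, histones, replication and red blood cell markers, and CTD rat 2 for the CAR and PXR targets.

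Targets of CAR and PXR rose in part. Of the 44 members tested, 13 were higher and 2 lower, with a median log2 fold change of 0.44. The mean of the list was 0.64, 1.10 and 0.71 in CTD rats 1, 2 and 3, against -0.23 to 0.28 in the controls. Here CTD rat 2, and not rat 1, was highest. Cyp2b1, the P450 that is the textbook marker of CAR activation in the rat, was at 14, 178 and 20.9 CPM with CTD and 0.0302 to 0.998 CPM (median 0.379) in the controls (log2 fold change 7.13 ± 0.86, adjusted p = 1.19e-06). Cyp2b2, its close relative, was at 117, 421 and 212 CPM with CTD and 1.51 to 12.1 CPM (median 4.7) in the controls (log2 fold change 5.36 ± 0.46, adjusted p = 2.76e-09). All CTD rats were above all controls for both, and CTD rat 2 stood above the others.

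The 2 genes lie on the same chromosome and are close paralogs, and how reads were split between them was not tested. Their promoter windows in GRCr8 lie at chr1:90645869-90646168 on the plus strand and chr1:90722031-90722330 on the plus strand. Aligned without gaps at an offset of 17 bases, 275 of 283 bases (97.2%) were identical, and the aligned bases that differ are in capitals.
Cyp2b1 promoter: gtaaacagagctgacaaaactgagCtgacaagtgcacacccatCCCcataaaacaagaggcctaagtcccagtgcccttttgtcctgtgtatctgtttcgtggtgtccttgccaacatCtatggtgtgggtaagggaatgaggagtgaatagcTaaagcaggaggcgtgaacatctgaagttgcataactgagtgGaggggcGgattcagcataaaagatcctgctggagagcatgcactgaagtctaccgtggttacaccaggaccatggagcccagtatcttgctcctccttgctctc
Cyp2b2 promoter: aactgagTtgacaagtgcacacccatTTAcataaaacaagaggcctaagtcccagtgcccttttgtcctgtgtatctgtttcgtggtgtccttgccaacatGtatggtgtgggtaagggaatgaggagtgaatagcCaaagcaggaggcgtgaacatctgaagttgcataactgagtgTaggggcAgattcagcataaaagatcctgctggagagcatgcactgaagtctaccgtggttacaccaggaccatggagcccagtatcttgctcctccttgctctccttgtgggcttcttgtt

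Other members of the list changed by smaller factors. Aldh1a1, an aldehyde dehydrogenase, was at 253, 489 and 341 CPM with CTD and 46.8 to 172 CPM (median 89.5) in the controls (log2 fold change 2.02 ± 0.26, adjusted p = 2.35e-06). Abcc3, the export pump for conjugates and bile acids on the blood side of the hepatocyte, was at 40.5, 60.0 and 50.3 CPM with CTD and 6.97 to 25.2 CPM (median 9.38) in the controls (log2 fold change 2.17 ± 0.24, adjusted p = 3.86e-07). Neither overlapped with the controls. Cyp3a23/3a1, the textbook target of PXR, was low in all rats, with 0.754, 0.904 and 0.369 CPM with CTD and 0.0609 to 0.247 CPM (median 0.128) in the controls (log2 fold change 2.30 ± 0.40, adjusted p = 0.000141). The study used uniquely mapped reads, and whether this lowered the counts of Cyp3a23/3a1 was not tested. Nr1i3, which encodes CAR itself, was at 12.3, 22.6 and 24.1 CPM with CTD and 2.85 to 16.1 CPM (median 7.74) in the controls (log2 fold change 1.10 ± 0.29, adjusted p = 0.00987), with CTD rat 1 within the range of the controls. Nr1i2, which encodes PXR, did not pass the test (log2 fold change -0.03 ± 0.10, adjusted p = 0.898). Cbr3, a carbonyl reductase, was lower, at 0.494, 0.207 and 0.308 CPM against 0.568 to 1.31 CPM (median 0.828) (log2 fold change -1.41 ± 0.36, adjusted p = 0.00878). Among these, a call was lost for Nr1i3 (without CTD rat 2 or 3, adjusted p = 0.0661 to 0.0704) and Cbr3 (without CTD rat 2, adjusted p = 0.0809).

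Targets of the oxidative stress factor NRF2 rose in part, some of them also targets of CAR. Of the 33 members tested, 12 were higher and 0 lower (1 at an unadjusted p under 0.05 by edgeR and 0 by the Wald test of DESeq2), with a median log2 fold change of 0.45. Me1, the malic enzyme that makes NADPH, was at 101, 281 and 59.8 CPM with CTD and 20.6 to 54.7 CPM (median 25.8) in the controls (log2 fold change 2.23 ± 0.32, adjusted p = 1.39e-05). Gclc, the catalytic subunit of glutathione synthesis, was at 148, 150 and 89.9 CPM with CTD and 77.6 to 100 CPM (median 91.2) in the controls (log2 fold change 0.53 ± 0.17, adjusted p = 0.032). For Gclc the groups overlapped. Slc7a11, the cystine transporter, reached the largest fold of the list from few counts (20, 53 and 0 counts in the CTD rats, 0 to 11 in the controls, adjusted p = 0.0269). The textbook markers Nqo1 (0.47 ± 0.28) and Hmox1 (0.05 ± 0.13) did not pass the test, and Ugdh (0.48 ± 0.11, adjusted p = 0.00443) had the smallest change called. Members of the list called higher numbered 7 without CTD rat 1. A library left out ended the call of Gclc (without CTD rat 1 or 2 or Control rat 7 or 8, adjusted p = 0.0503 to 0.212), Slc7a11 (without CTD rat 1 or 2, adjusted p = 0.058 to 0.464) and Ugdh (without CTD rat 3, adjusted p = 0.0585). Without CTD rat 2, the log2 fold change of Me1 was 1.35 (adjusted p = 0.00569).

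Of the 11 targets of the aryl hydrocarbon receptor (AHR) tested, 1 was higher and 1 lower, with a median log2 fold change of 0.30. Cyp1a1, the P450 most closely tied to that receptor, was at 44.4, 9.28 and 27.4 CPM with CTD and 0.268 to 7.81 CPM (median 2.15) in the controls (log2 fold change 3.01 ± 0.67, adjusted p = 0.00233). All CTD rats were above all controls, which themselves varied widely. Cyp1a2, at 1946, 1665 and 1865 CPM against 1040 to 2069 CPM (median 1327), did not pass the test (log2 fold change 0.32 ± 0.20, adjusted p = 0.342). The receptor's partner gene Arnt (-0.42 ± 0.11, adjusted p = 0.0117) was lower. Of the 37 targets of the fatty acid receptor PPARA tested, 6 were higher and 1 lower, with a median log2 fold change of 0.04, and those higher made up 16.2% of the list, against 6.62% of all genes tested. The textbook targets Cyp4a1 (-0.01 ± 0.13), Cpt1a (0.04 ± 0.35) and Pdk4 (0.27 ± 0.18) did not pass the test. Acaa1a, a peroxisomal thiolase, was lower, at 235, 260 and 228 CPM against 299 to 395 CPM (median 365) (log2 fold change -0.56 ± 0.09, adjusted p = 0.000115). Acot1, a thioesterase, was called higher from 13, 1 and 0 counts in the CTD rats and 0 to 4 in the controls, too few for a fold change. The call was lost for Arnt (without CTD rat 1, adjusted p = 0.159) and Acot1 (without CTD rat 1 or Control rat 2, 5, 6, 7 or 8, adjusted p = 0.0508 to 0.965).

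Outside these lists, the most increased genes were a neuronal receptor subunit and a membrane peptidase. Grin2c, a subunit of the NMDA receptor, was at 3.17, 7.91 and 4.58 CPM with CTD and 0.0244 to 0.289 CPM (median 0.169) in the controls (log2 fold change 4.91 ± 0.44, adjusted p = 6.50e-09). Mme, which encodes the peptidase neprilysin, was at 6.89, 20.6 and 6.37 CPM with CTD and 0.271 to 0.83 CPM (median 0.533) in the controls (log2 fold change 4.32 ± 0.39, adjusted p = 7.08e-09). CTD rat 2 was highest for both, as it was for Cyp2b1 and Cyp2b2. Among the most decreased genes, Nov, which encodes a matrix-associated signalling protein, was at 1.3, 0.413 and 0.431 CPM with CTD and 2.31 to 32.6 CPM (median 6.75) in the controls (log2 fold change -3.82 ± 1.18, adjusted p = 0.0285). Ky, first known from muscle, was at 1.51, 2.2 and 1.48 CPM with CTD and 11.2 to 32.5 CPM (median 14.2) in the controls (log2 fold change -3.26 ± 0.39, adjusted p = 9.43e-07). The controls of Nov and Ky were spread widely, and still no CTD rat reached the lowest of them. Rgs16, which shortens G protein signalling, was at 12.2, 18.3 and 21.9 CPM against 24.2 to 226 CPM (median 66.7) (log2 fold change -2.36 ± 0.66, adjusted p = 0.0154) and Lppr1 at 0.91, 0.956 and 0.40 CPM against 1.12 to 7.97 CPM (median 4.15) (log2 fold change -2.52 ± 0.65, adjusted p = 0.00847). Calls lost with 1 library fewer were those of Nov (without CTD rat 1, 2 or 3, adjusted p = 0.0674 to 0.122), Rgs16 (without CTD rat 1 or 2, adjusted p = 0.0608 to 0.0927) and Lppr1 (without CTD rat 3, adjusted p = 0.0513).

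Immediate early genes respond to growth factors and stress within minutes. Of the 43 genes of growth factor signalling and the immediate early class tested, 1 was higher and 11 lower, with a median log2 fold change of -0.31. Egr1, a zinc finger factor of this class, was at 2.24, 4.03 and 7.6 CPM with CTD and 17.7 to 60.2 CPM (median 29.1) in the controls (log2 fold change -2.87 ± 0.62, adjusted p = 0.00188). Jun, a subunit of AP-1, was at 16.8, 17.5 and 27.1 CPM with CTD and 39.4 to 120 CPM (median 65.4) in the controls (log2 fold change -1.75 ± 0.45, adjusted p = 0.00765). No CTD rat reached the lowest control for either gene. Fos, its partner, was at 0.936, 1.22 and 1.91 CPM with CTD and 2.27 to 9.3 CPM (median 4.37) in the controls, below all controls in each CTD rat, and did not pass the test (log2 fold change -1.83 ± 0.67, adjusted p = 0.0728). Egfr (-0.23 ± 0.16) and Myc (0.08 ± 0.41) did not pass it either. Egr2 was called from 1, 0 and 0 counts in the CTD rats and 0 to 16 counts in the controls. Ankrd1, a target of the YAP factor, was the only member called higher in the list, at 0.884, 1.78 and 1.42 CPM against 0.217 to 0.724 CPM (median 0.484) (log2 fold change 1.40 ± 0.33, adjusted p = 0.00376). Without CTD rat 1, 7 members were called lower, and without CTD rat 2 they were also 7. Leaving out 1 library ended the call of Jun (without CTD rat 1, adjusted p = 0.0584), Egr2 (without CTD rat 1, 2 or 3 or Control rat 1, 2, 6, 7 or 8, adjusted p = 0.0509 to 0.178) and Ankrd1 (without CTD rat 2, adjusted p = 0.0557).

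Gluconeogenesis and fasting had the largest share of members called lower among the 36 lists. Of the 29 members tested, 1 was higher and 15 lower, with a median log2 fold change of -0.55. The mean of the list was -0.50, -0.66 and -0.56 in CTD rats 1, 2 and 3, against -0.31 to 0.47 in the controls. Igfbp1, which binds insulin-like growth factors and is induced in fasting, was at 69, 13.3 and 59.5 CPM with CTD and 64.2 to 691 CPM (median 285) in the controls (log2 fold change -2.77 ± 0.73, adjusted p = 0.00944). Tat, which degrades tyrosine and is induced by glucocorticoids, was at 797, 544 and 505 CPM with CTD and 665 to 2032 CPM (median 1069) in the controls (log2 fold change -0.93 ± 0.25, adjusted p = 0.0106). The groups overlapped for both. Pck1, the rate-limiting enzyme of gluconeogenesis, was at 2506, 540 and 2073 CPM with CTD and 1465 to 4600 CPM (median 2415) in the controls and did not pass the test (log2 fold change -0.63 ± 0.38, adjusted p = 0.322). Metallothioneins, which bind zinc, fell further, with Mt2A at 7.18, 20.3 and 4.86 CPM with CTD and 27.8 to 246 CPM (median 73) in the controls (log2 fold change -3.03 ± 0.75, adjusted p = 0.00618) and Mt1a at 23.9, 70.0 and 17.2 CPM with CTD and 76.2 to 451 CPM (median 178) in the controls (log2 fold change -2.37 ± 0.59, adjusted p = 0.00667). No CTD rat reached the lowest control for either. Mt2A, with the most negative change of the list, is counted among its 15 members called lower. Another identifier, MT1, was low and changed by -2.60 ± 0.68 (adjusted p = 0.00938), and the metallothioneins may share reads. Asns, the asparagine synthetase, was the only member of the list called higher, at 3.35, 2.22 and 1.94 CPM with CTD and 0.234 to 0.801 CPM (median 0.414) in the controls (log2 fold change 2.47 ± 0.39, adjusted p = 5.16e-05). Members of the list called lower numbered 6 without CTD rat 1, and without CTD rat 2 they were 9. With 1 library left out, the call was lost for Igfbp1 (without CTD rat 2, adjusted p = 0.0706), Tat (without CTD rat 2 or 3, adjusted p = 0.0685 to 0.0687), Mt2A (without CTD rat 1, adjusted p = 0.0518), Mt1a (without CTD rat 1, adjusted p = 0.0588) and MT1 (without CTD rat 1 or 3, adjusted p = 0.0579 to 0.074).

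Enzymes of the urea cycle and of amino acid breakdown were lower in part. Of the 38 members tested, 0 were higher (1 at an unadjusted p under 0.05 by edgeR and 1 by the Wald test of DESeq2) and 11 lower, with a median log2 fold change of -0.23. Sds, which degrades serine, was at 16.5, 19.8 and 19.8 CPM with CTD and 27.5 to 146 CPM (median 72) in the controls (log2 fold change -2.04 ± 0.51, adjusted p = 0.00648), and Fah, the last enzyme of tyrosine breakdown, at 284, 419 and 356 CPM with CTD and 422 to 504 CPM (median 461) in the controls (log2 fold change -0.38 ± 0.12, adjusted p = 0.0324). No CTD rat reached the lowest control. The key members Cps1 (-0.24 ± 0.15), Arg1 (-0.15 ± 0.10) and Glul (-0.35 ± 0.16), did not pass the test. Without CTD rat 1, 5 members were called lower. The test was no longer passed by Fah (without CTD rat 1 or 3 or Control rat 7 or 8, adjusted p = 0.0501 to 0.287).

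Of the 29 genes of bile acid synthesis and transport tested, 2 were higher and 3 lower, with a median log2 fold change of -0.03. These were 6.9% and 10.3% of the list, against 6.62% and 6.03% of all genes tested. Cyp7a1, the rate-limiting enzyme, was at 85.9, 161 and 41.2 CPM with CTD and 81.9 to 385 CPM (median 281) in the controls and did not pass the test (log2 fold change -1.29 ± 0.57, adjusted p = 0.151). Cyp8b1, which makes cholic acid, was at 44.4, 101 and 204 CPM with CTD and 216 to 318 CPM (median 258) in the controls (log2 fold change -1.17 ± 0.39, adjusted p = 0.043). Abcg8, part of the sterol pump into bile, was lower (log2 fold change -1.56 ± 0.52, adjusted p = 0.0446), and the uptake and export pump genes Slc10a1 (0.28 ± 0.12) and Abcb11 (0.03 ± 0.10) did not pass the test. Among these, a call was lost for Cyp8b1 (without CTD rat 1 or 2 or Control rat 1, 3, 5 or 8, adjusted p = 0.0502 to 0.274) and Abcg8 (without CTD rat 1, 2 or 3 or Control rat 1, 3, 4, 7 or 8, adjusted p = 0.0505 to 0.17). A call was gained by Slc10a1 (without CTD rat 1, adjusted p = 0.023). Without CTD rat 3, the log2 fold change of Cyp8b1 was -1.85 (adjusted p = 0.00573). Of the 27 genes of cholesterol synthesis and uptake tested, 2 were higher and 1 lower, with a median log2 fold change of 0.07. The shares of this list were 7.41% higher and 3.7% lower, near those of all genes tested. The key members Sqle (0.02 ± 0.31) and CYP51A1 (0.38 ± 0.15) did not pass the test, and the calls ran from Tm7sf2 (-0.38 ± 0.11, adjusted p = 0.0181) to Acat2 (0.59 ± 0.20, adjusted p = 0.043). A library left out ended the call of Tm7sf2 (without CTD rat 1, adjusted p = 0.114) and Acat2 (without CTD rat 2 or Control rat 2, 3, 5, 6 or 7, adjusted p = 0.0534 to 0.535).

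Of the 32 genes of lipogenesis and glucose sensing tested, 1 was higher and 2 lower, with a median log2 fold change of -0.10. These were 3.12% and 6.25% of the list, against 6.62% and 6.03% of all genes tested. The key members Srebf1 (-0.64 ± 0.42), Acaca (0.21 ± 0.29) and Fasn (-0.06 ± 0.39) did not pass the test. The CTD rats disagreed among themselves here: Fasn, the fatty acid synthase, was at 647, 2393 and 618 CPM with CTD and 712 to 2309 CPM (median 1255) in the controls, so CTD rat 2 was above all controls and the others below all of them. Khk, the fructokinase, was lower (log2 fold change -0.51 ± 0.13, adjusted p = 0.00847). Me1, described above, was the only member called higher. The call was lost for Khk (without CTD rat 1, adjusted p = 0.106). A call was gained by Srebf1 (without CTD rat 2, adjusted p = 0.0128).

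Of the 22 circadian clock genes tested, 1 was higher and 4 lower, with a median log2 fold change of -0.08. The key members ARNTL (0.01 ± 0.07), Per2 (-0.46 ± 0.44), Nr1d1 (0.83 ± 0.69) and Dbp (-0.11 ± 0.19) did not pass the test, and the calls ran from Per1 (-0.96 ± 0.29, adjusted p = 0.0256) to NR1D2 (0.56 ± 0.19, adjusted p = 0.0461). Calls lost with 1 library fewer were those of Per1 (without CTD rat 1, 2 or 3 or Control rat 5, adjusted p = 0.0505 to 0.11) and NR1D2 (without CTD rat 1 or Control rat 1, 2, 3, 6 or 8, adjusted p = 0.0539 to 0.451). Of the 38 genes of the unfolded protein and integrated stress responses tested, 5 were higher and 4 lower, with a median log2 fold change of 0.01. Hspa5, the chaperone that marks stress of the endoplasmic reticulum, was at 877, 827 and 989 CPM against 669 to 1263 CPM (median 929) (log2 fold change -0.06 ± 0.17, adjusted p = 0.873), and Atf3 (-0.52 ± 0.52) and DDIT3 (-0.57 ± 0.27) did not pass the test either. Sesn2, a stress-induced inhibitor of growth signals, was lower, at 15.4, 15 and 15.1 CPM against 22.2 to 72.3 CPM (median 28.9) (log2 fold change -1.17 ± 0.29, adjusted p = 0.00533). Of the 18 heat shock genes tested, 0 were higher (1 at an unadjusted p under 0.05 by edgeR and 0 by the Wald test of DESeq2) and 1 lower, with a median log2 fold change of -0.11, the call being Hspe1 (-0.37 ± 0.11, adjusted p = 0.0225), while Hspa1b (-1.25 ± 0.73) and Dnajb1 (-0.22 ± 0.21) did not pass the test. Leaving out 1 library ended the call of Hspe1 (without CTD rat 1 or 2, adjusted p = 0.141 to 0.149).

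Of the 39 complement and coagulation genes tested, 1 was higher and 12 lower, with a median log2 fold change of -0.22. Serping1, the C1 inhibitor, was at 180, 148 and 146 CPM with CTD and 371 to 478 CPM (median 455) in the controls (log2 fold change -1.45 ± 0.10, adjusted p = 2.88e-11), the most negative change of the list. F7, coagulation factor VII, was at 93.2, 90.3 and 104 CPM with CTD and 108 to 256 CPM (median 158) in the controls (log2 fold change -0.80 ± 0.22, adjusted p = 0.0141). No CTD rat reached the lowest control for either. C3 (-0.26 ± 0.09) and C9 (0.13 ± 0.10) did not pass the test, and Pros1 (0.29 ± 0.08, adjusted p = 0.0127), the anticoagulant protein S, was higher. Of the 29 acute phase proteins tested, 1 was higher and 5 lower, with a median log2 fold change of -0.23, running from Lbp (-0.77 ± 0.24, adjusted p = 0.0327) to Serpina3c (0.47 ± 0.15, adjusted p = 0.0315). The key members Hp (-0.24 ± 0.09), Orm1 (-0.29 ± 0.23), A2m (-1.11 ± 0.67) and Lcn2 (-0.31 ± 0.35) did not pass the test. Complement and coagulation members called lower numbered 5 without CTD rat 1. With 1 library left out, the call was lost for F7 (without CTD rat 1 or 2, adjusted p = 0.0677 to 0.07), Pros1 (without CTD rat 2, adjusted p = 0.154), Lbp (without CTD rat 1 or 2 or Control rat 2, adjusted p = 0.0555 to 0.162) and Serpina3c (without CTD rat 1, 2 or 3, adjusted p = 0.0597 to 0.13). 1 library fewer gave a call for C3 (without Control rat 2, adjusted p = 0.0428).

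Of the 30 hepatocyte markers tested, 0 were higher (0 at an unadjusted p under 0.05 by edgeR and 0 by the Wald test of DESeq2) and 8 lower, with a median log2 fold change of -0.20. The key members Alb (-0.03 ± 0.15), Apoa1 (0.15 ± 0.20) and Hnf4a (-0.19 ± 0.13) did not pass the test, and the calls lay between Asgr2 (-0.62 ± 0.18, adjusted p = 0.0183) and F2 (-0.32 ± 0.08, adjusted p = 0.00571). The mean of the list was -0.33, -0.18 and -0.11 in CTD rats 1, 2 and 3, against -0.06 to 0.04 in the controls, lower in each CTD rat than in any control. The summed level of the list was 242400 to 264700 CPM in the CTD rats and 245500 to 308900 CPM in the controls. The test was no longer passed by Asgr2 (without CTD rat 1 or 2, adjusted p = 0.0622 to 0.0937) and F2 (without CTD rat 1, adjusted p = 0.0596). Of the 25 pericentral genes under Wnt control tested, 1 was higher and 1 lower, with a median log2 fold change of -0.13. Axin2 (-0.01 ± 0.20) and Cyp2e1 (-0.15 ± 0.15) did not pass the test, whereas Rhbg, an ammonium transporter, was higher (21.4, 13.1 and 11.8 CPM against 3.02 to 10.7 CPM (median 5.62), log2 fold change 1.34 ± 0.33, adjusted p = 0.00653) and Aldh1b1 (-0.87 ± 0.23, adjusted p = 0.0116) was lower. Among these, a call was lost for Rhbg (without CTD rat 1, adjusted p = 0.105) and Aldh1b1 (without CTD rat 1 or 3, adjusted p = 0.0667 to 0.0835). Of the 35 genes under growth hormone and STAT5 control tested, 1 was higher and 3 lower, with a median log2 fold change of -0.10. Hsd11b1, which regenerates active glucocorticoid, was at 76.6, 153 and 174 CPM with CTD and 17.1 to 70.6 CPM (median 23) in the controls (log2 fold change 2.18 ± 0.42, adjusted p = 0.000457), with all CTD rats above all controls. Igf1 (-0.05 ± 0.11), Igfals (-0.28 ± 0.12), Cyp2c12 (0.14 ± 0.09), Prlr (-0.96 ± 0.33) and Srd5a1 (-0.05 ± 0.12) did not pass the test, and Stat5a (-0.49 ± 0.15, adjusted p = 0.0245) was lower. A library left out ended the call of Stat5a (without CTD rat 1 or 3, adjusted p = 0.0774 to 0.273). A call was gained by Prlr (without Control rat 4, adjusted p = 0.0307).

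Of the 14 genes of thyroid hormone handling tested, 2 were higher and 3 lower, with a median log2 fold change of -0.24. Slc16a10, a thyroid hormone and amino acid carrier, was at 40.0, 47.7 and 47.6 CPM with CTD and 61.5 to 83.4 CPM (median 77.4) in the controls (log2 fold change -0.73 ± 0.11, adjusted p = 1.38e-05), and Thrsp (-0.58 ± 0.33, adjusted p = 0.289) did not pass the test. A call was gained by Thrsp (without CTD rat 2, adjusted p = 0.0162). Of the 27 genes of iron and heme handling tested, 0 were higher (3 at an unadjusted p under 0.05 by edgeR and 1 by the Wald test of DESeq2) and 4 lower, with a median log2 fold change of -0.06. The calls ran from Slc40a1 (-0.54 ± 0.15, adjusted p = 0.0147) to Urod (-0.31 ± 0.08, adjusted p = 0.00606), and Hamp (-0.21 ± 0.26), Tfrc (0.49 ± 0.18) and Alas1 (0.16 ± 0.26) did not pass the test. The call was lost for Slc40a1 (without CTD rat 2 or 3, adjusted p = 0.0697 to 0.0882) and Urod (without CTD rat 1, adjusted p = 0.116). 1 library fewer gave a call for Tfrc (without Control rat 1, adjusted p = 0.0153). Of the 43 interferon-stimulated genes tested, 1 was higher and 3 lower, with a median log2 fold change of -0.21. These were 2.33% and 6.98% of the list, against 6.62% and 6.03% of all genes tested. Ifit1 (-0.81 ± 1.00), Mx1 (-0.62 ± 0.43), Oas1a (-1.13 ± 0.57) and Irf7 (-0.81 ± 0.38) did not pass the test, and the calls ran from Ifi27 (-0.59 ± 0.14, adjusted p = 0.0037) to Cxcl9 (1.09 ± 0.23, adjusted p = 0.00162), a chemokine. Calls lost with 1 library fewer were those of Ifi27 (without CTD rat 1, adjusted p = 0.0635) and Cxcl9 (without CTD rat 1, adjusted p = 0.056).

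Of the 11 red blood cell markers tested, 5 were higher and 1 lower, with a median log2 fold change of 1.81. Hbb, a beta globin, was at 61.5, 69.5 and 60.7 CPM with CTD and 4.12 to 13.3 CPM (median 8.22) in the controls (log2 fold change 2.83 ± 0.48, adjusted p = 0.000108), and Alas2, the erythroid enzyme of heme synthesis, at 1.56, 1.78 and 1.01 CPM with CTD and 0.0454 to 0.468 CPM (median 0.288) in the controls (log2 fold change 2.34 ± 0.63, adjusted p = 0.0124). All CTD rats were above all controls for both. Slc4a1, the anion exchanger of the red cell membrane, was lower (log2 fold change -0.77 ± 0.24, adjusted p = 0.0326). The summed level of the list was 160 to 196 CPM in the CTD rats and 28.8 to 71 CPM in the controls, and its mean was 1.40, 0.68 and 0.79 in CTD rats 1, 2 and 3, against -0.25 to 0.30 in the controls. CTD rat 1 had the highest mean of the 3, as it had for cell division, and the part of red blood cells in the result was not tested. Globin genes may share reads. Leaving out 1 library ended the call of Alas2 (without CTD rat 1 or 2, adjusted p = 0.0504 to 0.0613) and Slc4a1 (without CTD rat 1, 2 or 3 or Control rat 5, 6 or 7, adjusted p = 0.0512 to 0.186).

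Of the 33 markers of Kupffer cells and macrophages tested, 0 were higher (1 at an unadjusted p under 0.05 by edgeR and 0 by the Wald test of DESeq2) and 7 lower, with a median log2 fold change of -0.15. Cd68 was at 10.5, 9.04 and 6.64 CPM with CTD and 9.47 to 17.9 CPM (median 14.4) in the controls (log2 fold change -0.67 ± 0.16, adjusted p = 0.0053) and C1qa at 72.8, 51.4 and 60.0 CPM with CTD and 70.9 to 114 CPM (median 91.6) in the controls (log2 fold change -0.54 ± 0.15, adjusted p = 0.0111), and the groups overlapped for both. Cd163 (-0.43 ± 0.15) and Clec4f (-0.39 ± 0.17) did not pass the test, and Csf1r (-0.39 ± 0.13, adjusted p = 0.0439) was the change nearest to 0 among the calls. The summed level of the list was 768 to 1115 CPM in the CTD rats and 957 to 1377 CPM in the controls. With 1 library left out, the call was lost for Cd68 (without CTD rat 3, adjusted p = 0.0645), C1qa (without CTD rat 2, adjusted p = 0.112) and Csf1r (without CTD rat 2 or 3 or Control rat 3, 5, 6, 7 or 8, adjusted p = 0.0506 to 0.294). A call was gained by Cd163 (without CTD rat 1 or Control rat 1, 2 or 4, adjusted p = 0.00386 to 0.0497). Of the 30 endothelial markers tested, 0 were higher (0 at an unadjusted p under 0.05 by edgeR and 0 by the Wald test of DESeq2) and 8 lower, with a median log2 fold change of -0.18, from Robo4 (-1.42 ± 0.45, adjusted p = 0.0353) to Tie1 (-0.24 ± 0.08, adjusted p = 0.0376). Pecam1 (0.06 ± 0.11), Stab2 (-0.08 ± 0.13) and Wnt2 (0.33 ± 0.27) did not pass the test, and the summed level was 807 to 979 CPM in the CTD rats and 946 to 1108 CPM in the controls. The test was no longer passed by Robo4 (without CTD rat 1 or 2 or Control rat 3 or 6, adjusted p = 0.0547 to 0.185) and Tie1 (without CTD rat 1 or 2 or Control rat 1, 3, 4, 7 or 8, adjusted p = 0.0533 to 0.304).

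Of the 48 markers of stellate cells, fibroblasts and matrix tested, 10 were higher and 6 lower, with a median log2 fold change of -0.03. Lox, which crosslinks collagen, was at 1.77, 0.827 and 1.48 CPM with CTD and 0.181 to 1.06 CPM (median 0.446) in the controls (log2 fold change 1.38 ± 0.37, adjusted p = 0.0111), and Eln, elastin, at 5.91, 4.75 and 7.29 CPM with CTD and 5.31 to 20.3 CPM (median 14.2) in the controls (log2 fold change -1.14 ± 0.32, adjusted p = 0.0145). The groups overlapped for both. Col1a1 (0.75 ± 0.27) and Timp1 (0.43 ± 0.25) did not pass the test. The summed level was 2413 to 2815 CPM in the CTD rats and 2314 to 3374 CPM in the controls. Members of the list called higher numbered 3 without CTD rat 1, and without CTD rat 3 they were 4. Among these, a call was lost for Lox (without CTD rat 1, adjusted p = 0.111) and Eln (without CTD rat 1 or 2, adjusted p = 0.0659 to 0.0952). A call was gained by Col1a1 (without CTD rat 2 or Control rat 1, adjusted p = 0.00604 to 0.0495).

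Of the 30 T and NK cell markers tested, 0 were higher (1 at an unadjusted p under 0.05 by edgeR and 0 by the Wald test of DESeq2) and 1 lower, with a median log2 fold change of -0.29, the call being Zap70 (-3.14 ± 0.93, adjusted p = 0.0218), a kinase of T cell signalling. Cd3e (1.47 ± 0.83) and Nkg7 (-0.47 ± 0.58) did not pass the test, and Ifng had 0 counts in the CTD rats and at most 2 in a control. Of the 14 B and plasma cell markers tested, 0 were higher (0 at an unadjusted p under 0.05 by edgeR and 0 by the Wald test of DESeq2) and 1 lower, with a median log2 fold change of -0.74, the call being Cd22 (-0.99 ± 0.22, adjusted p = 0.00213), a B cell receptor, while Ms4a1 (-1.81 ± 1.14, adjusted p = 0.342) did not pass the test. Of the 21 markers of bile ducts and progenitors tested, 0 were higher (1 at an unadjusted p under 0.05 by edgeR and 1 by the Wald test of DESeq2) and 3 lower, with a median log2 fold change of -0.03, from Prom1 (-1.71 ± 0.55, adjusted p = 0.0351) to Cdh1 (-0.50 ± 0.14, adjusted p = 0.0127). Krt19 (0.05 ± 0.26), Epcam (0.26 ± 0.20) and Afp (-0.26 ± 0.20) did not pass the test. Of the 10 pancreas markers tested, 0 were higher (0 at an unadjusted p under 0.05 by edgeR and 0 by the Wald test of DESeq2) and 1 lower, with a median log2 fold change of -1.20, with Cpa1 (-1.91 ± 0.56, adjusted p = 0.0209), a digestive enzyme, lower and Prss1, trypsinogen, at 0 counts in all 11 libraries. The summed levels were 21.4 to 27.1 CPM in the CTD rats and 23.3 to 38.6 CPM in the controls for T and NK cells, 61 to 147 CPM in the CTD rats and 93.4 to 182 CPM in the controls for B and plasma cells, 764 to 977 CPM in the CTD rats and 846 to 987 CPM in the controls for bile ducts and progenitors, and 17.9 to 138 CPM in the CTD rats and 194 to 470 CPM in the controls for pancreas. The pancreas sum of every CTD rat was below that of every control, with Cpa1 alone at 88.2, 11 and 129 CPM against 188 to 464 CPM (median 256), and its part in the other results was not tested. A library left out ended the call of Zap70 (without CTD rat 1 or 2, adjusted p = 0.0788 to 0.124), Prom1 (without CTD rat 2 or 3 or Control rat 5 or 7, adjusted p = 0.0512 to 0.183), Cdh1 (without CTD rat 1 or 2, adjusted p = 0.0748 to 0.0976) and Cpa1 (without CTD rat 1 or 2, adjusted p = 0.0663 to 0.118).

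Nicotinic acetylcholine receptor subunits, the family that CTD acts on in insects, were barely counted in these livers. Of the 14 members tested, 0 were higher (1 at an unadjusted p under 0.05 by edgeR and 0 by the Wald test of DESeq2) and 1 lower, with a median log2 fold change of -0.93. As a mean over the list, CTD rats 1, 2 and 3 stood at -0.25, 0.15 and -0.05, against -0.16 to 0.09 in the controls. The CTD rats thus showed no common shift, and the median rests on genes of few counts. The summed level of the 14 genes was 2.19 to 4.75 CPM in the CTD rats and 3.63 to 7.33 CPM in the controls. Chrnb1, a muscle subunit, was at 0.806, 2.38 and 0.861 CPM with CTD and 0.959 to 2.23 CPM (median 1.59) in the controls (log2 fold change -0.18 ± 0.40, adjusted p = 0.818), and Chrne, another, at 1.07, 1.83 and 2.68 CPM with CTD and 2.48 to 5.1 CPM (median 2.93) in the controls (log2 fold change -0.82 ± 0.25, adjusted p = 0.0252). Chrna4 and Chrna7, the main subunits of brain receptors, had at most 5 and 3 counts in any of the 11 libraries. The call was lost for Chrne (without CTD rat 1 or 2, adjusted p = 0.0868 to 0.235). At those counts, a call was gained by Chrna4 (without CTD rat 1 or 3, adjusted p = 0.0382 to 0.0487).

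The mitochondrially encoded genes, which make subunits of the respiratory chain from the mitochondrial genome, rose unequally. Of the 13 genes tested, 11 were called higher and 0 lower (0 at an unadjusted p under 0.05 by edgeR and 0 by the Wald test of DESeq2), with a median log2 fold change of 0.905. They were named after their values were seen. MT-ATP8, a small subunit of ATP synthase, was at 2.73, 4.5 and 6.03 CPM with CTD and 0.44 to 0.802 CPM (median 0.718) in the controls (log2 fold change 2.75 ± 0.26, adjusted p = 8.99e-09). MT-ND2, of complex I, was at 73.4, 69.4 and 90.1 CPM with CTD and 20.3 to 44.2 CPM (median 30.4) in the controls (log2 fold change 1.31 ± 0.18, adjusted p = 6.22e-06), and MT-CO3, of complex IV, at 1263, 1284 and 1766 CPM with CTD and 581 to 998 CPM (median 828) in the controls (log2 fold change 0.78 ± 0.13, adjusted p = 8.17e-05). No control reached the lowest CTD rat for these. COI, the most abundant of the 13, was at 12330, 11040 and 14040 CPM with CTD and 6805 to 12110 CPM (median 9564) in the controls and did not pass the test (log2 fold change 0.33 ± 0.13, adjusted p = 0.0895), nor did MT-ND6 (0.54 ± 0.21, adjusted p = 0.0867). The other calls were ND1 (0.51 ± 0.14, adjusted p = 0.017), MT-CO2 (0.47 ± 0.12, adjusted p = 0.00686), CYTB (0.48 ± 0.16, adjusted p = 0.0385), MT-ATP6 (0.92 ± 0.15, adjusted p = 8.69e-05), MT-ND5 (0.91 ± 0.20, adjusted p = 0.0018), ND3 (1.13 ± 0.11, adjusted p = 1.25e-08), MT-ND4 (1.16 ± 0.17, adjusted p = 2.39e-05) and MT-ND4L (1.51 ± 0.16, adjusted p = 2.16e-07). CTD rat 3 was highest for most of them, unlike the cell cycle genes. In the direct contrasts, 9 of the 13 were higher with CTD alone than with THI + CTD and 9 higher than with IMZ + CTD. The share of these genes in all counts was 1.33% to 1.57% with THI + CTD and 1.18% to 1.57% with IMZ + CTD. Calls lost with 1 library fewer were those of ND1 (without CTD rat 3, adjusted p = 0.135), MT-CO2 (without CTD rat 3, adjusted p = 0.0757) and CYTB (without CTD rat 1, 2 or 3 or Control rat 1, 2, 3 or 4, adjusted p = 0.0535 to 0.203). 1 library fewer gave a call for COI (without Control rat 6 or 7, adjusted p = 0.0461 to 0.0466) and MT-ND6 (without Control rat 1, adjusted p = 0.0419).

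**Figure D4:**
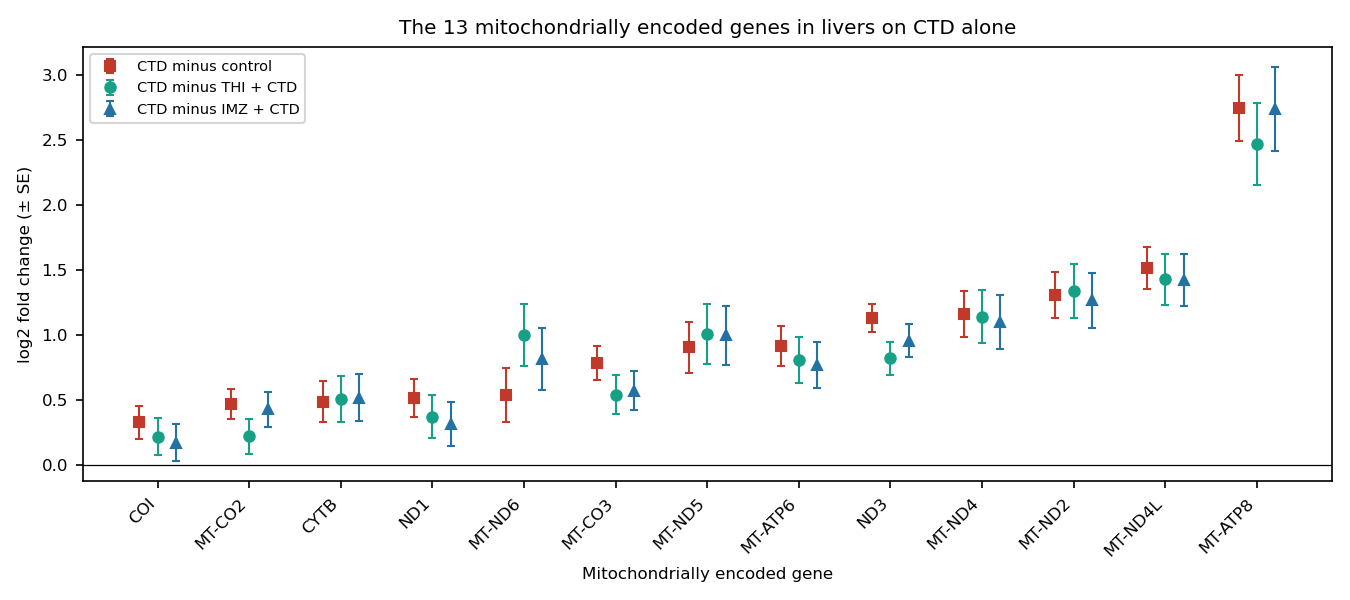
Log2 fold change with its SE of the 13 mitochondrially encoded genes in the 3 CTD rats against 8 controls (squares), 4 rats on THI + CTD (circles) and 4 rats on IMZ + CTD (triangles). All points lie above 0, with MT-ATP8 the farthest at 2.75 against control.

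Livers on 288 mg/kg bw/day of CTD alone were then set directly against those on the mixtures, which hold a lower dose of CTD together with a partner, so dose and partner cannot be told apart. Every library on CTD alone had a smaller share of uniquely mapped reads, as the study lists them, than any library on these mixtures. The part of this share in the differences was not tested. Against THI + CTD, 2.67% of the genes tested differed, 1.0% higher and 1.66% lower with CTD alone. Against IMZ + CTD, 5.53% differed, 2.7% higher and 2.83% lower. The genes called were 531 and 1100, and without CTD rat 1 they were 313 and 594. From IMZ + CTD, 669 genes (313 higher, 356 lower) differed without CTD rat 2, and those higher numbered 355 without IMZ + CTD rat 2 and 334 without IMZ + CTD rat 3. From THI + CTD, those higher numbered 131 without CTD rat 3 and 126 without THI + CTD rat 2. Of the 93 genes of cell division, 1 and 2 were called higher with CTD alone and 0 lower in these contrasts, and the median log2 difference of the list was 0.83 from THI + CTD and 0.58 from IMZ + CTD. Their median log2 fold change against control was 2.62 with CTD alone, 1.78 with THI + CTD and 1.95 with IMZ + CTD, all measured against the same controls. Cdk1 had log2 fold changes against control of 3.44 with CTD, 2.38 with THI + CTD and 2.86 with IMZ + CTD, and differed by 1.06 ± 0.48 against THI + CTD (adjusted p = 0.268) and 0.58 ± 0.47 against IMZ + CTD (adjusted p = 0.555). For Cyp2b2 the differences were -0.60 ± 0.54 against THI + CTD (adjusted p = 0.659) and 1.71 ± 0.53 against IMZ + CTD (adjusted p = 0.0525).

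The DEGs were picked by the same 3 CTD rats that enter both mixture contrasts, so differences away from control were favoured in advance. DEGs called nearer to control with CTD alone numbered 1 against THI + CTD and 0 against IMZ + CTD. Of the 2518 DEGs, 433 (17.2%) lay farther from control with CTD alone than with THI + CTD, and 839 (33.3%) farther than with IMZ + CTD. Both held for 343 genes, 127 higher and 216 lower. The genes described next are the 5 lowest and the 5 highest of these among genes with a symbol, an average log2 CPM above 0 and no overlap with the controls, leaving out the mitochondrial genes. They were chosen after their values were seen. Rps16, a protein of the small ribosomal subunit, was at 20.0, 7.16 and 6.86 CPM with CTD and 54.2 to 94.4 CPM (median 66.8) in the controls (log2 fold change -2.64 ± 0.24, adjusted p = 8.63e-09). In the mixtures it was at 53 to 77.1 CPM with THI + CTD and 75.7 to 92.5 CPM with IMZ + CTD, and its log2 differences were -2.54 ± 0.26 against THI + CTD (adjusted p = 1.21e-07) and -2.85 ± 0.26 against IMZ + CTD (adjusted p = 1.60e-08). All 3 CTD rats were below every rat of the 3 other groups. Of the 88 genes with a symbol of a ribosomal protein and an average log2 CPM above 0, 2 were higher and 19 lower with CTD against control, with a median of -0.142. Scamp3, a carrier membrane protein, was at 11.2, 11.9 and 12.6 CPM with CTD and 35.4 to 44.7 CPM (median 39.4) in the controls (log2 fold change -1.73 ± 0.09, adjusted p = 6.33e-14), and in the mixtures at 38.3 to 45.3 CPM with THI + CTD and 35.9 to 45.4 CPM with IMZ + CTD. Serping1, described above with the complement genes, was at 365 to 416 CPM with THI + CTD and 382 to 431 CPM with IMZ + CTD, with differences of -1.30 ± 0.11 against THI + CTD (adjusted p = 2.13e-09) and -1.34 ± 0.11 against IMZ + CTD (adjusted p = 1.49e-09). The remaining 2 of the lowest were Rab27a (-1.70 ± 0.29, adjusted p = 0.000114) and Vamp2 (-1.41 ± 0.18, adjusted p = 2.84e-06), both proteins of vesicle traffic.

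Among the highest, Smc2, the core of condensin, was at 31.8, 17.5 and 10.4 CPM with CTD and 5.7 to 8.09 CPM (median 7.44) in the controls (log2 fold change 1.47 ± 0.19, adjusted p = 4.00e-06), and in the mixtures at 8.5 to 13.3 CPM with THI + CTD and 8.0 to 13.3 CPM with IMZ + CTD. Suz12, a subunit of the Polycomb repressive complex that methylates histone H3, was at 16.1, 14.1 and 10.1 CPM with CTD and 5.21 to 7.41 CPM (median 6.41) in the controls (log2 fold change 1.07 ± 0.12, adjusted p = 4.99e-07), and in the mixtures at 6.91 to 8.01 CPM with THI + CTD and 5.54 to 6.9 CPM with IMZ + CTD. Fbl, the methyltransferase of ribosomal RNA, was at 9.99, 9.07 and 7.91 CPM with CTD and 4.04 to 5.46 CPM (median 4.4) in the controls (log2 fold change 0.99 ± 0.13, adjusted p = 4.00e-06), and in the mixtures at 3.44 to 5.82 CPM with THI + CTD and 3.53 to 4.43 CPM with IMZ + CTD. No rat on a mixture reached the lowest CTD rat for Suz12 or Fbl, whereas for Smc2 the lowest CTD rat was within the range of both mixtures. The other 2 were Psip1 (1.20 ± 0.14, adjusted p = 8.95e-07) and Zmat1 (1.02 ± 0.16, adjusted p = 5.23e-05). The mitochondrial share of the counts was also above all controls, at 1.79%, 1.53% and 1.99% in CTD rats 1, 2 and 3. CTD rat 3 had the highest share and the lowest level of Smc2, Suz12 and Fbl among the CTD rats. The part of the mitochondrial share in the result was not tested. Without CTD rat 1, the log2 fold change of Smc2 was 0.96 (adjusted p = 0.00128).

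**Figure D5:**
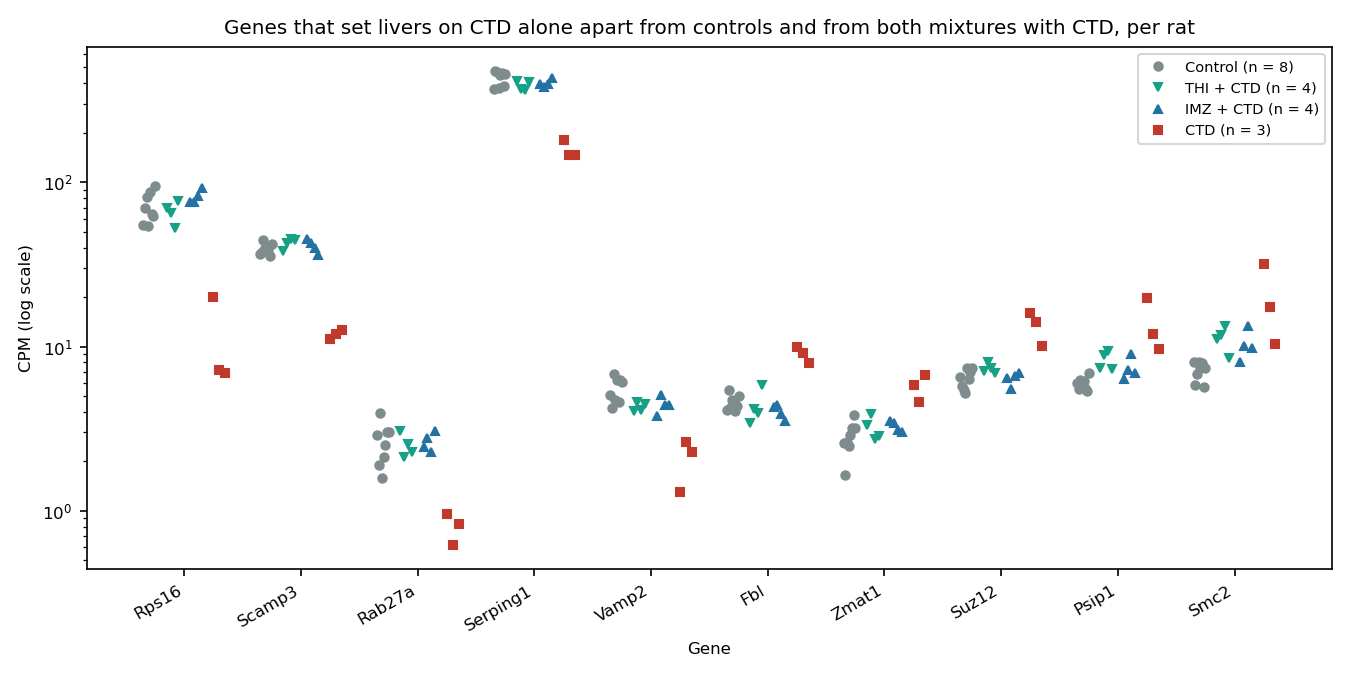
CPM on a log scale of 10 genes in each rat of 4 groups: controls (grey circles, n = 8), THI + CTD (downward triangles, n = 4), IMZ + CTD (upward triangles, n = 4) and CTD alone (squares, n = 3). The CTD rats stand apart from all other rats for Rps16, Scamp3, Serping1, Suz12 and Fbl.

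THI is another neonicotinoid, which carries a cyano group and a thiazolidine ring where CTD is an open-chain nitroguanidine. It was given at 108 mg/kg bw/day and CTD at 288 mg/kg bw/day, so the doses differ and the values are only set side by side, each against the same controls. Cyp2b1 had a log2 fold change of 7.13 ± 0.86 with CTD and 9.02 ± 0.88 with THI. Cdk1 had 3.44 ± 0.41 with CTD and 0.30 ± 0.45 with THI (adjusted p = 0.868). Mki67 had 2.94 ± 0.42 with CTD and 0.27 ± 0.43 with THI (adjusted p = 0.879).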

How the data were processed

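Livers of the 31 rats were sequenced as stranded total RNA. Per the labels, the submitters used FastQC 0.11.5, STAR 2.5.2b on Rnor_5.0 and DESeq2 1.15.1; the annotation release and the strand setting are not given in the sources used here. The authors deposited raw counts per gene for 26312 genes, and a signal table that equals the deposited counts divided by a size factor per library (largest relative deviation 5.3e-15), which was not tested further. No column belonged to another series, and 0 rows named no gene.

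Genes with at least 2 counts summed over the libraries were tested with edgeR 4.0.16 in R 4.3.3 (TMM scaling, quasi-likelihood test of the older method, 7 groups, 24 residual degrees of freedom, common biological coefficient of variation 19.4%), with Benjamini-Hochberg adjustment and a threshold of 0.05. Errors are standard errors of the log2 fold change. Library totals of the 11 libraries compared, 31.8 to 101 in units of 1000000 counts, set the precision. Nothing in the labels says more of the replicates than that they are separate samples, 1 per rat, so p-values measure the spread between these samples. Of 1265 entries in 36 gene lists, 76 matched no gene and 1178 were tested. The members and lists were chosen with earlier results of these data known. Genes named are the 10 largest and 10 smallest changes among DEGs with a symbol, an average log2 CPM above 0 and no overlap of the CTD rats with the controls, a set of key members of each list, and the largest and smallest called member of each list. Some genes that the rule names are not reported here. Genes outside this rule are said to have been chosen after their values were seen.

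Alternatives were size factors of DESeq2, filterByExpr, no filter, the Wald test of DESeq2 1.42.0, the newer quasi-likelihood method, only the groups compared, a replicate block, thinning to 31820322 counts, and leaving out each library. The test was checked on simulated counts. Promoter windows came from RefSeq (GRCr8), and motifs were searched in the first window listed for a gene.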

Additional observations from a re-analysis of the deposited data

Results flagged for a closer look

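A rat was marked when it stood so far from the other 7 controls that its gap to the nearest of them, over the range of all 8, was above Dixon's 95% critical value. If values were normally spread, chance would mark about 1 in 20 groups, which is about 10 of the 206 groups of values tested, and 29 were marked. The rule was applied to CPM without a log scale, and the groups share rats and related genes. These counts therefore cannot show an excess of marked rats. Groups of 3 CTD rats are too small for this rule. No explanation was tested for any of these values. Control rat 1 had the highest value of the controls for Ifng (0.0193 CPM), Lox (1.06 CPM), Chrna4 (0.00965 CPM) and Hamp (174 CPM). Control rat 2 had the highest value of the controls for Nov (32.6 CPM), Cpt1a (172 CPM), Hspa1b (3.11 CPM), Zap70 (11.2 CPM), Lcn2 (6.54 CPM) and F7 (256 CPM). Control rat 2 had the lowest value of the controls for Cps1 (5090 CPM). Control rat 3 had the highest value of the controls for Ky (32.5 CPM). Control rat 4 had the highest value of the controls for Aldh1a1 (172 CPM), Abcc3 (25.2 CPM), Khk (326 CPM) and Hsd11b1 (70.6 CPM). Control rat 4 had the lowest value of the controls for Prlr (220 CPM). Control rat 5 had the highest value of the controls for Sesn2 (72.3 CPM), A2m (1.13 CPM), Chrna7 (0.0366 CPM) and Hist1h2ba (0.292 CPM). Control rat 6 had the highest value of the controls for Cyp2e1 (5840 CPM). Control rat 7 had the highest value of the controls for Mt2A (246 CPM), MT1 (4.95 CPM), Mt1a (451 CPM), Jun (120 CPM) and Chrne (5.1 CPM). Control rat 5 also had the highest share of counts in the 10 most abundant genes (30.6%) and in albumin (16.1%). Ifng, Chrna4 and Chrna7 were near 0 counts in all of these libraries.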

How the results depend on the processing

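Among the 207 genes that the naming rule or a later choice picked, none that was called changed direction in an alternative run that tested it. Direction was not compared for the genes outside that set. With CTD against control, the genes called numbered 2530 with size factors of DESeq2, 2817 with filterByExpr, 2456 with no filter, 3007 by the Wald test, 2573 with the newer quasi-likelihood method, 2078 with only the groups compared and 2300 after thinning, against 2518, and 50.9% to 55.4% of the calls were higher over all alternatives (52.3% as reported). Correlations of same-numbered CTD and control rats were 0.0751, -0.118 and 0.0697, within the range of differently numbered pairs (-0.233 to 0.257). So few values cannot exclude that replicate numbers pair the rats, and the main fit has no block. With the replicate block the calls were 1571 (811 higher, 760 lower), with NRF2 targets higher 7, gluconeogenesis and fasting lower 5, and urea cycle and amino acid enzymes lower 7, and 1408 of the 1571 were also called without it. In the same block fit, CTD differed from THI + CTD in 438 genes and from IMZ + CTD in 845. Against THI + CTD, filterByExpr gave 305 genes higher and the Wald test 936 (394 higher, 542 lower). Against IMZ + CTD the Wald test gave 1654, of which 858 were lower. For these counts the cause was not tested. Of 207 genes that the naming rule or a later choice picked, the call was lost for 39 with the block, 16 with only the groups compared, 8 after thinning and at most 1 in the other settings that keep all libraries.

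Leaving out 1 library at a time gave 1470 to 2556 calls (754 to 1335 higher, 716 to 1221 lower). In the lists it gave 65 to 88 for mitosis and cell division, 18 to 40 for DNA replication, 9 to 13 for G1 regulators, 11 to 25 for DNA repair, 11 to 14 for CAR and PXR targets, 7 to 12 for NRF2 targets, 3 to 12 for stellate cell markers and 12 to 18 for histones called higher. Called lower were 6 to 16 for gluconeogenesis and fasting, 5 to 13 for complement and coagulation, 5 to 12 for urea cycle and amino acid enzymes and 7 to 12 for growth factor signalling. Calls ranged from 313 to 585 against THI + CTD (103 to 224 higher, 210 to 361 lower) and from 594 to 1038 against IMZ + CTD (259 to 516 higher, 335 to 522 lower). With 3 CTD rats, each carries much weight, and genes of few counts are limited by depth.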
